A study of Mus musculus with 24 samples.

Results

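The messages that encode 9 regulators of mRNA stability (Rbm38, Pcbp1, Pcbp2, Celf1, Cpeb4, Zfp36l1, Zfp36l2, Pum2 and Elavl1) were examined for the places where they are themselves covered by protein. These genes were chosen by name from 21938 protein-coding genes, and every site that overlapped their mm10 gene bodies on the same strand was collected. The data came from murine erythroleukemia (MEL) cells, a transformed line held at an early erythroid stage that makes hemoglobin when grown in DMSO. Uninduced cells (day 0) and cells grown in 2% DMSO for 2 or 4 d were crosslinked with formaldehyde, with 2 biological replicates per day. Each replicate gave 4 libraries, 24 in all, by protein interaction profile sequencing (PIP-seq). In footprinting libraries RNA was digested while proteins were still bound, and in structure-only libraries proteins were removed first. Libraries were put in these groups by their titles, since another label field calls the footprinting libraries treated with proteinase K (or, for ssRNase, protein kinase) and the structure-only ones untreated, whereas in the protocol it is the structure-only samples that get proteinase K before the nuclease. Each kind was digested either with a nuclease that cuts single-stranded RNA (ssRNase) or with one that cuts paired RNA (dsRNase). Regions richer in footprinting than in structure-only reads are protein-protected sites (PPSs), and the deposited data are 1 list of PPSs per day in which the calls of both replicates and both nucleases had been merged.

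Proteins of this kind bind short words, mostly in the 3′ UTR of a message, and set how long the message lasts or how well it is translated. ZFP36L1 and ZFP36L2 bind AU-rich elements and recruit a deadenylase complex, whereas ELAVL1 (HuR) binds U-rich stretches and mostly stabilizes its targets. PCBP1 and PCBP2 bind C-rich words and are known for stabilizing α-globin mRNA. CELF1 and RBM38 bind GU-rich words, PUM2 binds the Pumilio element and represses its targets, and CPEB4 binds the cytoplasmic polyadenylation element and is known to rise in late erythroid cells and to repress translation there. Many such proteins also bind their own messages. The PPSs say that a stretch of RNA was protected, not by which protein.

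After PPSs of 20 to 40 nt, the size of ribosome footprints, had been left out, 242 of the 114907 PPSs of day 0, 320 of the 119487 of day 2 and 483 of the 122038 of day 4 lay in the 9 genes. All 9 genes held PPSs on every day. The values below are coverage, the percentage of the nucleotides of a gene's exons, coding sequence (CDS), 3′ UTR or introns that lay in a PPS. Replicate values use the PPSs with a call from that replicate, and since merged PPSs carry shared boundaries, the replicates look more alike than separate calls would. A gene was called higher or lower when both replicates of the later day lay above or below both of the earlier day. With 2 replicates against 2 the smallest two-sided p of an exact permutation test is 0.333, so no p-value is given. More protection and more RNA to protect cannot be told apart in these lists, and RNA levels were not analysed here.

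Sequences around the word bound by each gene's own protein show where its message could be read by that protein, and 14 such words lay in a 3′ UTR PPS on at least 1 day. The following 30-nt stretches are from the GRCm38 reference, 5′ to 3′ on the strand of the message, with the word in capitals. Of the 3′ UTR of Zfp36l2, 43.3% was in PPSs at day 2 and 69.8% at day 4. Its 3 copies of TATTTAT were in PPSs as follows, the first on days 2 and 4 and the others on day 4 only.
Zfp36l2, chr17:84184866-84184895, minus strand: ttgtccatactgTATTTATcgagtatgatg
Zfp36l2, chr17:84184914-84184943, minus strand: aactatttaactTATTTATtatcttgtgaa
Zfp36l2, chr17:84184680-84184709, minus strand: gattgtatgtaaTATTTATttcattaattt
In Cpeb4, 2 of 11 copies of TTTTAT were in PPSs, both on day 4 only, when 41.4% of its 3′ UTR was.
Cpeb4, chr11:31934718-31934747, plus strand: atgaacttagcaTTTTATgagagtgctgtt
Cpeb4, chr11:31935058-31935087, plus strand: tcatttgctttaTTTTATtatcttatttta
In Pum2, 1 of 2 copies of TGTANATA was in a PPS, on day 0 only.
Pum2, chr12:8750154-8750183, plus strand: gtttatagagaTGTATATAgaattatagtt
In Celf1, 1 of 14 copies of GTGTG was in a PPS on all 3 days, and in Rbm38 the single copy was in a PPS on day 4.
Celf1, chr2:91018567-91018596, plus strand: agagagcctgctGTGTGcccacagtctgac
Rbm38, chr2:173034592-173034621, plus strand: ctcagggagccaGTGTGcgggcgggaactc
In contrast, none of the 54 copies of TTTNTTT in the 3′ UTR of Elavl1, of the 3 copies of TATTTAT in Zfp36l1 or of the 5 copies of CCCTCC or CCTCCC in Pcbp2 was in a PPS on any day, and the 3′ UTR of Pcbp1 held no such C-rich word. Every start of a word was counted, so many of the Elavl1 copies overlap in the same U-rich runs, and some Pcbp2 copies overlap too. Only 5.90%, 2.54% and 10.5% of the Elavl1 3′ UTR lay in PPSs on days 0, 2 and 4.

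Cpeb4 (chr11:31872211-31935634, plus strand, 10 exons) had the greatest change in exonic coverage from day 0 to day 4 among the 9 genes. Its exonic coverage was 4.18% and 2.28% in the day 0 replicates, 8.23% and 10.5% at day 2, and 33.7% and 32.0% at day 4. The 3 days did not overlap. In the whole lists this was 6.45%, 13.8% and 42.3%, a gain of 35.9 points by day 4, with a range of 27.8 to 31.4 over the 4 pairs of replicates. PPSs in the gene numbered 12, 71 and 194, and those called in both replicates numbered 1, 24 and 105.

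The Cpeb4 gain ran along the whole transcript. By day 4 coverage was 42.0% of the CDS (5.98% at day 0) and 41.4% of the 3′ UTR (5.46% at day 0). On the longest spliced transcript, whose 3′ UTR has 4102 nt, the stop-proximal, middle and distal parts of equal length held 8.41%, 3.88% and 4.10% at day 0, and 39.9%, 40.9% and 43.5% at day 4. Protection was thus close to even over the 3′ UTR on day 4. Both nucleases showed it, as exonic coverage rose from 3.16% to 17.4% for ssRNase calls and from 3.30% to 37.0% for dsRNase calls. The first of the TTTTAT words above lay in the 3′ UTR PPS of day 4 with the highest deposited score, which spanned 227 nt (chr11:31934675-31934901) and merged 4 calls. Scores grow with the number of merged calls, with a median of 6.82 for PPSs of 1 call and 15.02 for those of 2 calls, so that this choice also favors merged sites.

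Introns of Cpeb4 were covered as well. Wholly intronic PPSs numbered 5, 54 and 156 on days 0, 2 and 4, and intron coverage was 0.48%, 6.24% and 25.3%. The replicates were 0.20% and 0.38% at day 0 against 22.3% and 20.8% at day 4. Of the 204 separate protected regions in the gene, none was particular to day 0 and 131 were called only at day 4, which can be seen in the maps of its mRNA and introns.

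**Figure D1:**
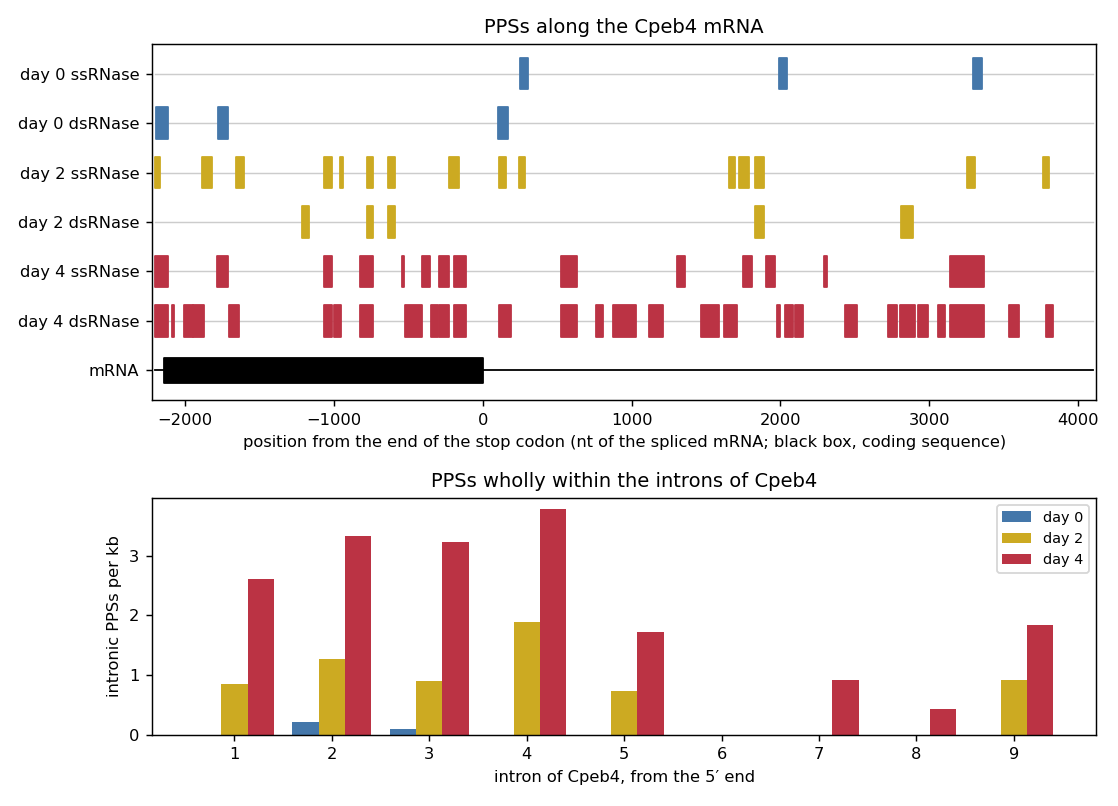
The upper part maps PPSs of Cpeb4 on its longest spliced mRNA by day and nuclease, with the x axis in nt from the end of the stop codon, the black box for the CDS and the line for the UTRs; the lower part gives wholly intronic PPSs per kb for each of the 9 introns. On day 4 the PPSs extend along the whole mRNA, and introns 1 to 4 hold 2.61 to 3.79 PPSs per kb against 0 to 0.21 on day 0.

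Genes whose exonic coverage most resembled that of Cpeb4 over the 12 call sets (day, nuclease and replicate) were Dcun1d1 (Pearson r = 0.983), Ncoa1 (r = 0.981) and Ell2 (r = 0.976), out of 7684 genes ranked. Their coverage went from 4.54% to 16.1%, 3.10% to 14.1% and 3.002% to 25.5% between days 0 and 4. These correlations are descriptions over call sets that share libraries.

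Zfp36l2 (chr17:84183931-84187947, minus strand, 2 exons) gained protection in its 3′ UTR while its CDS lost it. The 3′ UTR was covered over 32.7% and 24.5% in the day 0 replicates, 40.2% and 31.2% at day 2, and 69.8% and 63.9% at day 4. Day 4 lay above both earlier days. The CDS was covered over 12.6% and 23.8% at day 0, 29.3% and 19.6% at day 2, and 11.1% and 6.80% at day 4, so that here day 4 lay below both earlier days. The whole lists gave a 3′ UTR gain of 30.02 points and a CDS loss of 12.7 points.

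Of the 3′ UTR nucleotides of Zfp36l2 covered at day 0, 87.7% were covered at day 4, when 69.8% of the whole 3′ UTR was. Pooled over the 3′ UTRs of all genes this share was 41.2%. The gain was greatest in the middle part of the 3′ UTR, from 23.4% to 73.8%, which holds the 3 TATTTAT words shown above. It came from dsRNase calls, whose 3′ UTR coverage was 32.7% and 24.5% at day 0 and 65.5% and 61.4% at day 4. For ssRNase calls alone, the change had the opposite sign, from 20.3% to 17.0% in the whole lists. Of the ssRNase calls of replicate 2 of day 0, 66.9% lay on the plus strand, and none lay in the 3′ UTR of Zfp36l2, which is on the minus strand. Its part in the ssRNase change was not tested.

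Its paralog Zfp36l1 (chr12:80107754-80113013, minus strand) was nearly free of PPSs. A single site of 54 nt was called at day 0 (chr12:80108065-80108118) in both replicates and with both nucleases. A site shifted by 2 to 3 nt was called at day 2, sharing 52 nt with the first. Its 30 central nucleotides, shown since they are the only stretch of this message protected on both days, are given here.
Zfp36l1, chr12:80108077-80108106, minus strand: ctgagaatgtatgtataagttctgtgacag
At day 4 no PPS was called there, and 4 PPSs with 1 call each lay elsewhere. Exonic coverage was 1.81%, 1.84% and 7.02%, and the replicates overlapped between days 0 and 4.

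Elavl1 (chr8:4285382-4325413, minus strand) was protected in its CDS far more than in its 3′ UTR. CDS coverage was 17.9% and 33.2% in the day 0 replicates, 1.73% and 6.42% at day 2, and 19.7% and 18.8% at day 4. Day 2 lay below both other days. At day 0, replicate 1 was covered by ssRNase calls only and replicate 2 by dsRNase calls only. From day 0 to day 2 the pairs of replicates ranged from -17.9 to 1.33 points in ssRNase calls. They ranged from -31.5 to 5.10 points in dsRNase calls. The 4218-nt 3′ UTR was covered over 5.90%, 2.54% and 10.5%, and day 0 and day 4 replicates overlapped there. Introns of Elavl1 were higher at day 4 (4.78% and 4.31%) than at day 0 (2.15% and 1.92%).

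Pcbp2 (chr15:102470539-102500061, plus strand) lost and regained its coverage. Exonic coverage was 15.3% and 18.4% in the day 0 replicates, 7.73% and 10.7% at day 2, and 26.1% and 25.8% at day 4. Day 2 lay below day 0, and day 4 above both. The fall at day 2 was found in the 3′ UTR (24.0%, 3.65% and 30.9% on days 0, 2 and 4) and in the CDS (29.2%, 5.66% and 37.7%). Intron coverage of 12.1% and 11.9% differed little between days 0 and 2, with overlapping replicates. Of the 3′ UTR nucleotides covered at day 0, 79.9% were covered at day 4, against 41.2% pooled over all genes. The part next to the stop codon was the most covered on both days (58.4% and 59.96%) and was at 0 on day 2.

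Pcbp1 (chr6:86524492-86526321, minus strand), an intronless gene, lost CDS coverage and had higher 3′ UTR coverage at day 4. The CDS was covered over 51.1% and 38.7% in the day 0 replicates, 31.7% and 22.4% at day 2, and 29.8% and 30.5% at day 4. The later days both lay below day 0. In its short 3′ UTR of 353 nt coverage was 16.7% and 12.7% at day 0 and 32.6% and 27.2% at day 4, all from dsRNase calls. The 3′ UTR gain of 10.5 points turned to -2.27 without replicate 1 of day 4, which lowers day 4 coverage by construction. Over the 4 pairs of replicates the gain was 10.5 to 19.8 points. It rests on few sites, as 2 PPSs touched this 3′ UTR at day 0 and 3 at day 4. Reads with several alignments were kept by the study, and Pcbp1 and Pcbp2 share identical runs of up to 31 nt, with 15.4% of Pcbp1 exonic nucleotides in shared runs of 14 nt or more, so that some reads may count for either gene. Zfp36l1 and Zfp36l2 share runs of up to 32 nt, with 5.69% of Zfp36l1 exonic nucleotides in such runs.

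Pum2 (chr12:8674134-8752581, plus strand, 21 exons) also had its lowest coverage at day 2, but did not pass its day 0 level afterward. The 3′ UTR was covered over 34.6% and 35.7% in the day 0 replicates, 10.7% and 7.58% at day 2, and 32.2% and 22.7% at day 4. The 3 days did not overlap. A PPS lay over the stop codon on days 0 and 4 and not on day 2. CDS coverage was 23.9%, 12.2% and 23.1%, with replicates of days 0 and 4 overlapping. Pum2 was the only one of the 7 genes with intronic PPSs in which intron coverage was lower at day 4 (1.45% and 1.29%) than at day 0 (2.06% and 2.93%). This direction came from ssRNase calls, as dsRNase calls alone went from 0.64% to 0.99%. The change was close to 0 (-0.0323 points) without the ssRNase calls of replicate 2 of day 0, which lowers day 0 coverage by construction. For ssRNase calls, intron coverage was 1.85% and 2.73% in the day 0 replicates, and 0.88% and 0.90% at day 4.

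**Figure D2:**
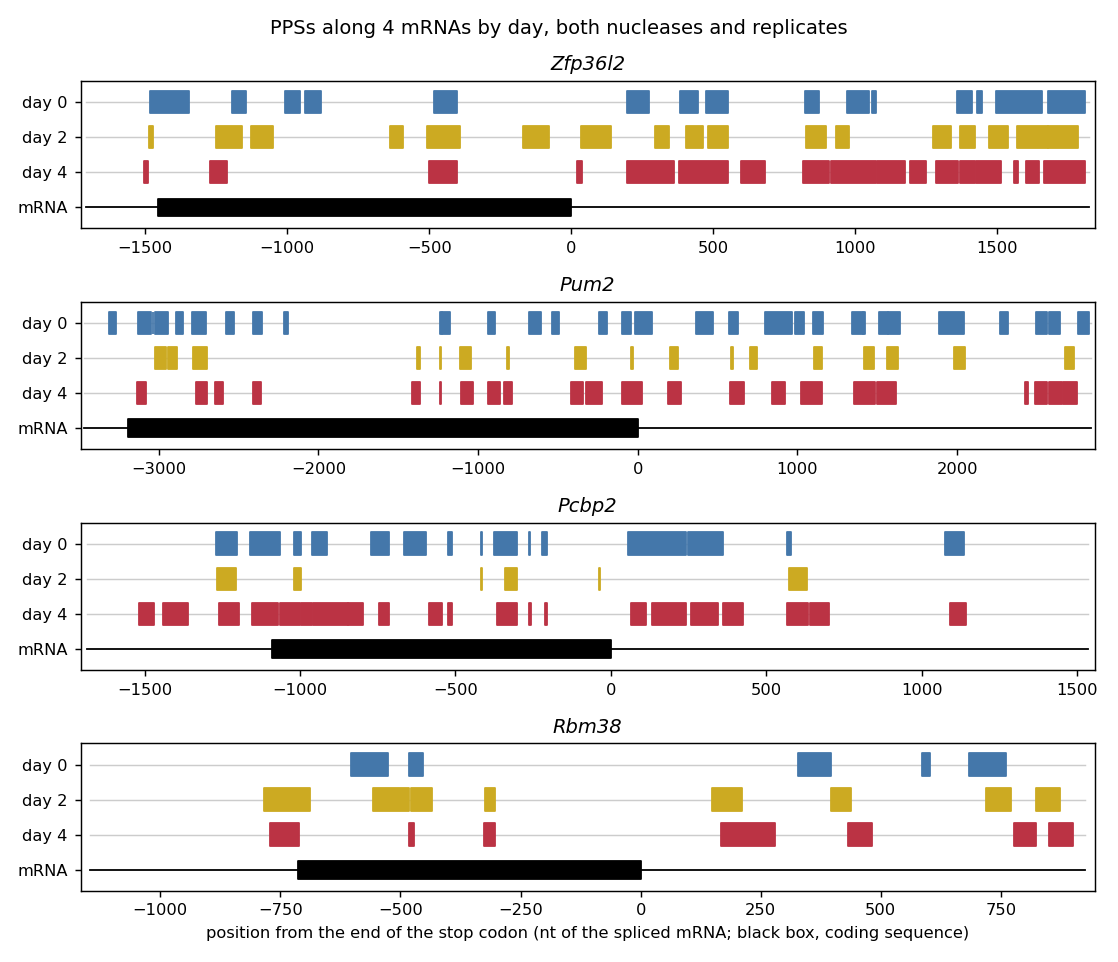
PPSs of both nucleases and both replicates on the longest spliced mRNAs of Zfp36l2, Pum2, Pcbp2 and Rbm38, with 1 row per day, the x axis in nt from the end of the stop codon and the black box for the CDS. The 3′ UTR of Zfp36l2 fills to 69.8% on day 4, those of Pum2 and Pcbp2 are sparse on day 2, and the 3′ UTR sites of Rbm38 lie at different places on days 0 and 4.

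Rbm38 (chr2:173020498-173034734, plus strand) had its 3′ UTR sites at different places on days 0 and 4 and gained sites in its introns. Exonic coverage was 4.22% and 11.9% in the day 0 replicates, 13.1% and 8.78% at day 2, and 13.5% and 15.96% at day 4, so that day 4 lay above day 0 whereas day 2 overlapped it. CDS coverage was lower at day 4 (3.64% and 1.54%) than at day 0 (11.1% and 15.3%), although with PPSs of 20 to 40 nt kept this loss became a gain of 1.82 points. The 3′ UTR values spread widely at day 0 (0% and 17.6%) against 17.7% and 27.9% at day 4. Of the 163 nucleotides of 3′ UTR covered at day 0 and the 258 covered at day 4, 0 were the same. The day 0 sites there were called in replicate 2 only. The highest score among those wholly in the 3′ UTR was 5.4, the lowest score of the lists, so the difference in place rests on weak calls.

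The introns of Rbm38 were covered over 3.40% and 3.75% at day 0, 9.10% and 11.9% at day 2, and 25.3% and 21.3% at day 4. The days did not overlap. Most of these PPSs lay in intron 4, by far the longest at 10124 nt, which held 8, 24 and 35 PPSs on the 3 days. Per kb it held 3.46 PPSs at day 4. Intron 2, of 521 nt, held 3.84 per kb then, from 2 PPSs. In the whole lists the intronic gain was 20.99 points in Rbm38, 24.9 in Cpeb4 and 20.1 in Zfp36l2, whose only intron has 487 nt.

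Celf1 (chr2:90940382-91019497, plus strand) had similar exonic coverage on days 0 and 4. Exonic coverage was 15.6% and 16.5% at day 0, 11.5% and 10.76% at day 2, and 14.6% and 17.1% at day 4, with days 0 and 4 overlapping and day 2 below both. Its long 3′ UTR of 6132 nt had 21.04%, 20.4% and 21.6% on the 3 days, and 43.7% of the nucleotides covered at day 0 were covered at day 4, near the 41.2% pooled over all genes. CDS coverage was lower at day 4 (17.2% and 18.8%) than at day 0 (20.9% and 26.9%). Without replicate 2 of day 0 the CDS change of -9.71 points became 4.53 points.

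**Figure D3:**
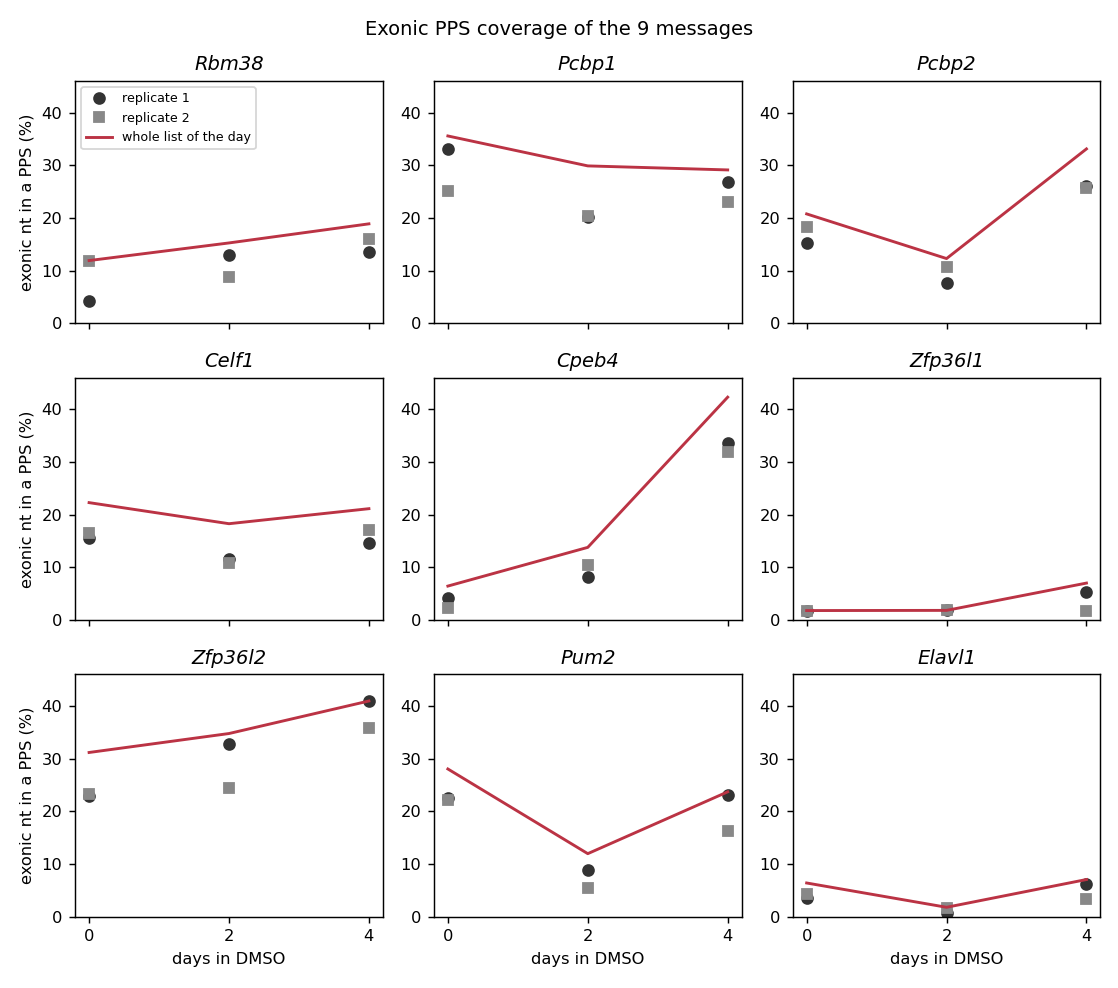
Percentage of exonic nucleotides in a PPS (y axis) against days in DMSO (x axis) for each gene, with points for the 2 replicates and the line for the whole list of a day. Cpeb4 climbs from 6.45% to 42.3%, whereas Pcbp2, Celf1, Pum2 and Elavl1 are lowest on day 2.

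Across the 9 genes, exonic coverage at day 4 was higher than at day 0 in 4 (Rbm38, Pcbp2, Cpeb4 and Zfp36l2) and lower in 0, where 30.8% and 25.4% of the 9550 protein-coding genes with exonic PPSs were called in these directions. At day 2 coverage was higher in 3 (22.3% of all genes), of which Zfp36l1 differed by 0.03 points, and lower in 5 (Pcbp1, Pcbp2, Celf1, Pum2 and Elavl1; 30.4% of all genes). Between days 2 and 4, coverage was higher in 8 of 9 (33.8% of all genes) and lower in 0 (19.3%). Zfp36l1 was the exception, with overlapping replicates. Pcbp1 was called higher by its replicates, although its whole lists went from 29.9% to 29.1%. The dsRNase call sets held 27862 and 32624 PPSs at day 0, 30485 and 14832 at day 2, and 54935 and 40195 at day 4. Those of ssRNase held 56044 and 50995, 51965 and 73952, and 47625 and 48112. The part of these call numbers in the day 2 values was not tested. The median change of the 9 genes was 5.22 points at day 4 and -4.00 points at day 2, against 0 and -0.45 over all genes. Over the pairs of replicates the medians were smaller, 0.67 to 3.44 at day 4 and -3.49 to -1.83 at day 2. The value of 5.22 is that of Zfp36l1, whose replicates overlapped. Without replicate 1 of day 4 the median at day 4 was -0.0334, since the remaining replicate holds fewer PPSs than the merged list.

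The CDS and 3′ UTR were also compared apart. Coverage of the 3′ UTR was higher at day 4 in 4 genes (Rbm38, Pcbp1, Cpeb4 and Zfp36l2; 29.7% of all genes) and lower in 1 (Pum2, 17.9%). CDS coverage was higher in 1 (Cpeb4, 27.8%) and lower in 4 (Rbm38, Pcbp1, Celf1 and Zfp36l2; 24.2%). Rbm38, Pcbp1 and Zfp36l2 were both higher in the 3′ UTR and lower in the CDS, 3 of 9 genes, where 3.91% of 6724 genes were. This combination was chosen after the values had been seen, and the Rbm38 and Pcbp1 calls rest on few sites. At day 2, 3′ UTR coverage was higher in 2 (15.4% of all genes) and lower in 4 (25.8%), and CDS coverage was higher in 1 (Cpeb4, 20.2%) and lower in 5 (Pcbp1, Pcbp2, Celf1, Pum2 and Elavl1; 29.1%). From day 2 to day 4, 3′ UTR coverage was higher in 6 (33.8%) and lower in 0 (11.3%), whereas CDS coverage was higher in 5 (31.3%) and lower in 2 (Rbm38 and Zfp36l2; 18.6%).

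The nucleases were also compared apart between days 0 and 4. In ssRNase calls, exonic coverage was higher in 2 genes (Pcbp2 and Cpeb4; 23.3% of all genes) and lower in 1 (Pcbp1, 22.4%), 3′ UTR coverage was higher in 2 of 8 (Cpeb4 and Elavl1; 16.5%) and lower in 0 (12.2%), and CDS coverage was higher in 1 (Cpeb4, 23.3%) and lower in 3 (Rbm38, Pcbp1 and Zfp36l2; 18.5%). In dsRNase calls, exonic coverage was higher in 4 (Rbm38, Celf1, Cpeb4 and Zfp36l2; 29.5%) and lower in 1 (Pcbp1, 18.9%). Coverage of the 3′ UTR was higher in 5 (Rbm38, Pcbp1, Celf1, Cpeb4 and Zfp36l2; 28.8%) and lower in 0 (13.4%) there, and CDS coverage was higher in 2 of 8 (Pcbp2 and Cpeb4; 22.7%) and lower in 3 (Pcbp1, Celf1 and Zfp36l2; 19.5%). Cpeb4 was the gene called higher in all 3 measures with both nucleases.

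Intron coverage was higher at day 4 in 6 of the 7 genes with intronic PPSs, where 26.9% of 7333 genes were called, and lower in 1 (24.4%). For Pcbp2 and Celf1 these gains were 2.52 and 0.75 points and changed sign without replicate 1 of day 4 (-2.07 and -0.52 points). For Celf1 the sign also changed without replicate 2 of day 4 (-0.18 points). Leaving out a day 4 replicate lowers day 4 coverage by construction. Over the pairs of replicates the gains were 0.76 to 3.92 points for Pcbp2 and 0.30 to 0.90 for Celf1. At day 2, 4 were higher (26.9%) and 0 lower (18.7%), and from day 2 to day 4, 4 were higher (19.5%) and 2 lower (Celf1 and Pum2; 23.6%). In dsRNase calls all 7 were higher at day 4 than at day 0 (36.2% of 5935 genes) and 0 lower (8.02%), and in ssRNase calls 4 were higher (18.3%) and 1 lower (28.5%). The day 4 dsRNase call sets held 54935 and 40195 PPSs in all, against 27862 and 32624 at day 0. The part of this difference in call number in the results was not tested.

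**Figure D4:**
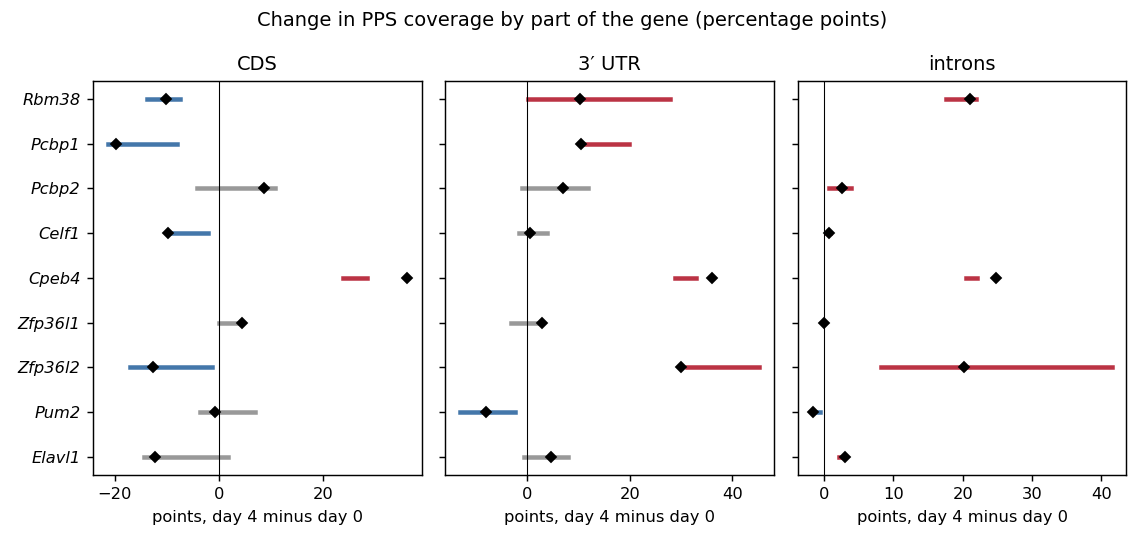
Change in coverage from day 0 to day 4 in percentage points (x axis) for the CDS, 3′ UTR and introns of each gene. Bars span the 4 pairs of replicates (red where both day 4 replicates are higher, blue where both are lower, gray where they overlap) and black diamonds give the whole lists, which can lie outside the bars because they join both replicates; Rbm38, Pcbp1 and Zfp36l2 have blue bars for the CDS and red ones for the 3′ UTR.

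Wholly intronic PPSs made up 47.9% of the PPSs in the 9 genes at day 0, 64.7% at day 2 and 64.8% at day 4, against 41.9%, 47.3% and 43.4% of the PPSs in all protein-coding genes. Cpeb4 held 156 of the 313 intronic PPSs of day 4, and without it the shares were 48.3%, 61.4% and 54.3%. PPSs that touched a 3′ UTR numbered 64, 56 and 91, and those that touched a CDS numbered 54, 45 and 65. The share called in both replicates went from 34.3% at day 0 and 34.7% at day 2 to 49.1% at day 4. Joined over the days, the PPSs formed 630 protected regions, of which 87 were found on all 3 days, 60 only on day 0, 77 only on day 2 and 216 only on day 4. Of these day 4 regions, Cpeb4 held 131. The shares called in both replicates and the region counts have no value over all genes beside them, so they describe these 9 genes only. The part in them of the greater number of dsRNase calls at day 4 was not tested. Zfp36l2 had the highest share of regions found on all 3 days, 10 of 22.

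**Figure D5:**
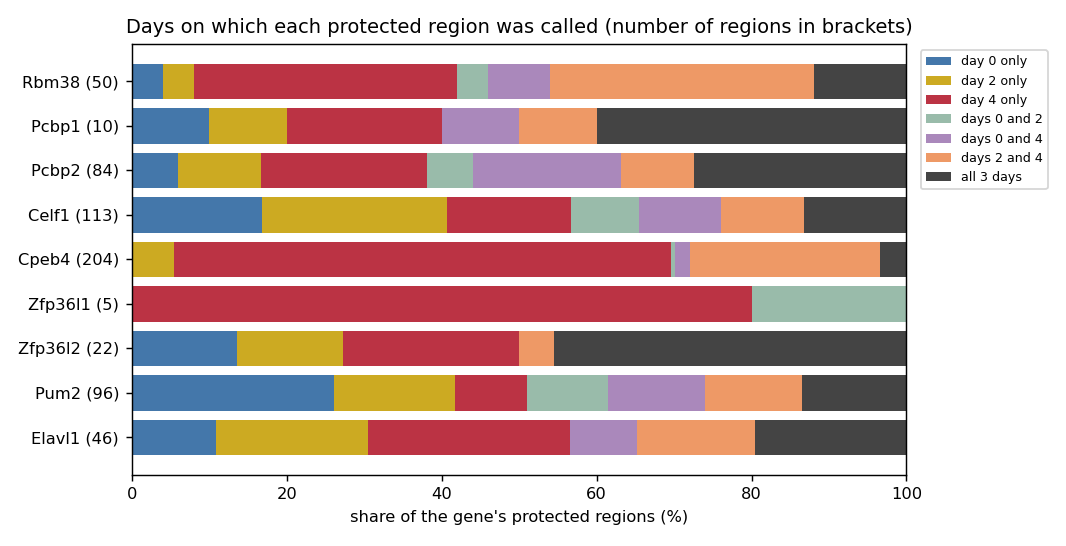
Share of each gene's protected regions (x axis, %) by the days on which they were called, with the number of regions in brackets. Regions of day 4 only make up most of Cpeb4 (131 of 204). Regions of all 3 days are the largest class in Zfp36l2 (10 of 22), Pcbp1 (4 of 10) and Pcbp2 (23 of 84).

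Words bound by these proteins were not common in the 3′ UTR PPSs. Of the 211 such PPSs in the 9 genes over the 3 lists, 25 (11.8%) held GTGTG, 18 (8.53%) TTTNTTT, 11 (5.21%) TTTTAT, 6 (2.84%) CCCTCC or CCTCCC, 3 (1.42%) TATTTAT and 1 (0.47%) TGTANATA, searched on the message strand. Over all 47090 3′ UTR PPSs the shares were 12.01%, 5.71%, 3.93%, 1.81%, 1.011% and 2.24%, in the same order. TTTNTTT and TTTTAT can overlap in the same U-rich stretch. In windows of 60 nt centered on each PPS, which removes differences in length, the 9 genes and all PPSs had 10.5% and 10.5% for GTGTG, and 8.10% and 5.52% for TTTNTTT. The shares were 3.81% and 3.74% for TTTTAT, and 3.33% and 1.87% for CCCTCC or CCTCCC. They were 1.90% and 0.93% for TATTTAT, and 0.48% and 2.01% for TGTANATA. The few PPSs behind these shares overlap between days and are no independent sites.

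Words of the other proteins were covered in some members. The 3′ UTR of Pum2 held 12 copies of TTTNTTT, with 6, 1 and 4 in PPSs on days 0, 2 and 4. That of Rbm38 held 8 C-rich words, with 4 in PPSs at day 4 and none earlier. Zfp36l2 held 5 copies of GTGTG, with 0, 3 and 4 in PPSs on the 3 days.

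Other regulators gave a background for these values. Of 38 further proteins that bind specific sequences to set stability or translation, 26 had exonic PPSs, with 10 higher and 6 lower at day 4, and a median change of 1.00 point. The greatest differences were in Ybx1, a cold-shock protein that packages mRNA (45.6% to 26.9%, lower), Fxr2 of the fragile X family (10.1% to 21.7%, higher) and Caprin1 (25.4% to 16.8%, lower). Of 35 components and cofactors of deadenylation, decapping and decay, 33 had exonic PPSs, with 11 higher, 9 lower and a median change of 0.23 points. Here Btg2, an antiproliferative cofactor of the deadenylase complex, went from 0% to 18.7% and 53.7% (higher), the decapping enzyme Dcp2 from 22.6% to 8.803% (lower), and the exosome subunit Exosc10 from 6.37% to 16.1% (higher).

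As a check of the cells, 10 erythroid markers had a median exonic coverage of 19.3%, 26.2% and 49.4% on days 0, 2 and 4, and Slc4a1, the anion exchanger of red cells, was at 0 before day 4 and at 8.46% then. Among markers of other blood cells, Cd3e, Itgam, Csf1r and Mpo were at 0 on all 3 days, and Ptprc was at 0.79% on day 0 and 0 later. The platelet genes Pf4 (31.2%, 6.93% and 11.5%) and Itga2b (37.9%, 37.1% and 44.2%) were covered. ssRNase calls of replicate 2 stood apart at day 0, with 66.9% on the plus strand, and at day 4, with 43.1%, whereas the other 10 call sets lay between 50.3% and 52.0%. Without the ssRNase calls of replicate 2 of day 0, the day 4 gain of Cpeb4 was 38.1 points and that of Rbm38 12.2 points, the latter 6.97 points with them. The change in Celf1 CDS was then -2.85 points, and the gains in Pcbp2, Celf1 and Zfp36l2 introns were 4.75, 1.76 and 41.5 points. Leaving these calls out lowers day 0 coverage by construction.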

How the data were processed

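PIP-seq libraries were made from MEL cells at days 0, 2 and 4 of DMSO treatment. Per the labels and the study's methods, the authors trimmed reads with cutadapt 1.2.1, aligned them to mm10 with TopHat2 2.0.10 keeping reads with several alignments, collapsed duplicates, and called PPSs with a modified CSAR Poisson test of footprinting against structure-only coverage. The deposited lists hold an enrichment score per PPS, from 5.4 upward, whose scale is not given in the sources used here and which grows with the number of merged calls. The score was used for 2 alternatives and to pick 1 PPS per gene and day to describe. Read depth is unknown, since the lists hold no counts.

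Day, nuclease and replicate were read from the PPS names. PPSs of 20 to 40 nt were left out. Coverage was computed with Python 3.11.15, numpy 2.4.6 and pandas 2.3.3 over union exons of GENCODE M21, and sequences were read from the GRCm38 reference with pysam 0.24.0. All 21 chromosomes matched in name and none of the PPSs passed a chromosome end. The code was tested on simulated PPSs with planted changes.

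The named genes were the 9 members, the 3 genes of each of 2 related lists with the largest change from day 0 to day 4, and the 3 genes most like the member that changed most. Members and lists were chosen with earlier results of these data known. Leaving out the ssRNase calls of replicate 2 of day 0 was an alternative chosen after seeing the data; all others are given in the closing section.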

Additional observations from a re-analysis of the deposited data

Results flagged for a closer look

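In 3 values the calls of the nucleases moved in opposite directions between days 0 and 2 in every pair of replicates, and the difference itself was not tested. Exonic coverage of Zfp36l2 changed by 7.42 points in ssRNase calls (1.33 to 13.5 over the pairs) and by -6.40 points in dsRNase calls (-6.91 to -5.89), 13.8 points apart. Its CDS coverage changed by 15.4 and -12.6 points, 28.0 points apart. The 3′ UTR coverage of Elavl1 changed by 1.46 and -2.93 points, 4.39 points apart. The ssRNase calls of replicate 2 of day 0 were sparse on the minus strand, where both genes lie, and the part of this in the differences was not tested.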

How the results depend on the processing

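Of 21 changes from day 0 to day 4 whose replicates did not overlap, Cpeb4 exonic (12.5 to 40.04 points), CDS and intron coverage, Pcbp2 exonic coverage (4.82 to 17.8 points), Rbm38 and Elavl1 intron coverage, Pcbp1 and Zfp36l2 CDS coverage and Pum2 3′ UTR coverage (-17.6 to -1.47 points) kept their sign under every alternative that was run. Leaving out a replicate, or the calls of 1 nuclease in it, lowers that day's coverage by construction. PPSs of a single call leave out all merged sites.

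With PPSs of a single call only, the changes were -1.12 (exonic), -7.46 (3′ UTR) and 0.98 (CDS) points for Rbm38, -9.35 (3′ UTR) for Pcbp1, -7.28 (exonic), -9.28 (3′ UTR) and -9.45 (intron) for Zfp36l2, and -0.00822 (intron) for Pcbp2. The medians became -0.84 (exonic) and 0.44 (3′ UTR) at day 4 and -0.23 (exonic) at day 2, from 148, 195 and 222 PPSs. With ssRNase calls only, Zfp36l2 changed by -3.51 (exonic) and -3.35 (3′ UTR) points and Celf1 introns by -0.00708, the medians were -0.0334 (exonic, day 4), 0 (3′ UTR, day 4) and 0.0334 (exonic, day 2), 2 genes were higher and 1 lower, and day 4 had 302 PPSs. With dsRNase calls only, Pum2 introns changed by 0.34 points, the day 2 exonic median was -5.55, 1 gene was lower, and days 0 and 2 had 112 and 110 PPSs. With a score of 10 or more, which favors merged calls, the medians were 0.46 (exonic) and 3.78 (3′ UTR) at day 4 and -2.82 (exonic) at day 2, 2 genes were lower, and the lists held 111, 147 and 277 PPSs. With calls of both replicates, the medians were 1.09, 3.78 and -0.71, from 83, 111 and 237 PPSs. With all lengths kept, exonic medians were 7.36 (day 4) and -1.80 (day 2), and Rbm38 CDS changed by 1.82 points. With equal numbers of top-scoring PPSs, Pcbp1 3′ UTR changed by -2.27 points and 1 gene was lower. With the transcript of longest CDS, the day 4 exonic median was 3.91, and that transcript of Cpeb4 has a short 3′ UTR with a change of 0. Without the ssRNase calls of replicate 2 of day 0, the day 2 medians were -1.09 (exonic) and 1.61 (3′ UTR), and days 0 and 2 had 186 and 320 PPSs.

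Leaving out 1 replicate gave medians of -0.0334 to 5.54 (exonic, day 4), -6.66 to 1.84 (exonic, day 2), -2.06 to 10.3 (3′ UTR, day 4) and -5.30 to 4.43 (3′ UTR, day 2), 4 to 7 genes higher (7 without replicate 2 of day 4) and 0 to 4 lower (4 without replicate 1 of day 4), and 153 to 172, 195 to 236 and 333 to 387 PPSs on the 3 days. The changes ranged from -2.27 (without replicate 1 of day 4) to 27.2 points in Pcbp1 3′ UTR, from -2.07 (without replicate 1 of day 4) to 5.84 in Pcbp2 introns, from -0.52 (without replicate 1 of day 4; -0.18 without replicate 2) to 1.83 in Celf1 introns, and from -18.0 to 4.53 (without replicate 2 of day 0) in Celf1 CDS. The cause of the other reversals was not tested. Apart from those by nuclease, the counts of genes called higher or lower in this section have no share over all genes beside them. They cannot be set against the shares given earlier, which belong to the main setting. Counts of PPSs with each word stayed within 1.5 times under the alternatives run.

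No paired analysis was possible because the results come from no test: replicate values were compared by overlap, since merged boundaries make replicates look alike. The lists hold no read counts, so a stretch with no PPS cannot be told apart from one with too few reads.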
